A study of Homo sapiens with 11 samples.

Results

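Ubiquitin, the chaperone-like ATPase VCP and the deubiquitinases that ride on the proteasome were followed in CCRF-CEM leukemia cells, an established line from a human T cell acute lymphoblastic leukemia, and in sublines of it that grow in the proteasome inhibitor bortezomib (BTZ). The set was given by symbol and holds 8 genes (UBB, RPS27A, ZFAND2A, ZFAND5, VCP, NPLOC4, USP14 and UCHL5), of which 7 are among the 17374 genes tested. These 7 genes have 20 of the 41000 probes on the arrays, and all 20 were above background in all 11 samples. No probe here carries the symbol RPS27A, which was not analysed here.

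RNA was taken from CEM/BTZ7 cells, resistant to 7 nM BTZ, after 24 h in 7 nM (3 samples), from CEM/BTZ100 cells after 24 h in 100 nM (1 sample) and from CEM/BTZ200 cells after 24 h in 200 nM (1 sample). CEM/BTZ-200 cells are CEM/BTZ200 cells grown on with no BTZ (1 sample). Parental cells were taken after 24 h in 7 nM BTZ (CEM/WT_BTZ, 3 samples) or untreated (CEM/WT, 2 samples). The sources differ on the sublines, which had a drug-free week ahead of their 24 h in BTZ by the study's methods but were kept in BTZ by the labels, and the drug-free time of CEM/BTZ-200 is given as weeks in one source and months in the other. In CEM/BTZ100 and CEM/BTZ200 the subline and the dose cannot be told apart. No source used here says whether replicates were separate cultures, so the p-values rest on a spread between samples that may be technical.

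The proteasome degrades proteins that carry chains of ubiquitin. UBB encodes ubiquitin as a head-to-tail polyprotein, and RPS27A encodes it fused to a ribosomal protein. ZFAND2A (also called AIRAP) and ZFAND5 are zinc finger proteins that bind ubiquitin and the proteasome. VCP (p97) is an ATPase that unfolds ubiquitylated proteins and pulls them out of membranes and complexes, and NPLOC4 is a subunit of the adaptor through which it takes hold of ubiquitin chains. USP14 and UCHL5 (UCH37) are deubiquitinases of the 19S regulatory particle, which trim ubiquitin from substrates before they are degraded. When proteasomes are inhibited, cells are known to raise transcription of proteasome subunits and of heat shock genes.

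The first promoter window of each of 6 members is shown because these genes were called higher in BTZ-treated parental cells in at least one scaling of the data. They run from 250 bases before to 50 bases after the start site (RefSeq, GRCh38.p14), and all 8 genes had at least one window. Capitals mark a two-unit heat shock element (TTCNNGAA or GAANNTTC) or an antioxidant response element core (TGACNNNGC, either strand).
ZFAND2A: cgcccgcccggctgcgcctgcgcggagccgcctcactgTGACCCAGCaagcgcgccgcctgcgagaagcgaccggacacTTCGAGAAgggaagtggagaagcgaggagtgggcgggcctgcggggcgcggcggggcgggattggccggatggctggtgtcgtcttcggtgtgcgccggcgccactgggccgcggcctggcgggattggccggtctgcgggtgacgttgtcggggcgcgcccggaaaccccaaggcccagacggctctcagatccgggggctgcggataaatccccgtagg
ZFAND5: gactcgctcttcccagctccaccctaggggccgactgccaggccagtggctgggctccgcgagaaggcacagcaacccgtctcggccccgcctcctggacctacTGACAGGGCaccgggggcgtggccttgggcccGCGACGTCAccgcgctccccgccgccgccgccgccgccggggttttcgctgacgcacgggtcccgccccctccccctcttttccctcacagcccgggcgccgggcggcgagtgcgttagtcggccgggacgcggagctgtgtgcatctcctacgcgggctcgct
VCP: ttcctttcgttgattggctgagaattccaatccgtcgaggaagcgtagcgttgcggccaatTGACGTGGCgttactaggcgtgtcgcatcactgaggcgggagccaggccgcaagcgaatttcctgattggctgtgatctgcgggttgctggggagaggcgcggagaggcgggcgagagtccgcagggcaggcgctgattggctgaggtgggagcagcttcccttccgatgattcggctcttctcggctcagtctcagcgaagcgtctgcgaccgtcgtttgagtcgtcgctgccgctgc
NPLOC4: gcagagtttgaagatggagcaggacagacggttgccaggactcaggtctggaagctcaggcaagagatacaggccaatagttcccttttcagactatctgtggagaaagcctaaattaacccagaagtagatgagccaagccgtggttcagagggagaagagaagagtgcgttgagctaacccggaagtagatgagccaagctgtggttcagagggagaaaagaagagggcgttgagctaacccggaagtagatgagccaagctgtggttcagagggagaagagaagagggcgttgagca
USP14: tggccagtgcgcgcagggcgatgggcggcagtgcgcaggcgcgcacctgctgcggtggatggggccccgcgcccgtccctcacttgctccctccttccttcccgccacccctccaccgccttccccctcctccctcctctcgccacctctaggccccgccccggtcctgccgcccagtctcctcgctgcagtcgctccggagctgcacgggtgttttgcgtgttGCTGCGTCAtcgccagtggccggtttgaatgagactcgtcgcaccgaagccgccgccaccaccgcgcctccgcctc
UBB: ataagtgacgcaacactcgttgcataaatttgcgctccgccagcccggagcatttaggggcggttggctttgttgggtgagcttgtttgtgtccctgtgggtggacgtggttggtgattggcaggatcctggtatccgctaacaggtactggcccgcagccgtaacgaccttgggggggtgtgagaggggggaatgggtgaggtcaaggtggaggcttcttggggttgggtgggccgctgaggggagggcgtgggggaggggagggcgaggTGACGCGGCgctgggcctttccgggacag
The ZFAND2A window (chr7:1160147-1160446, minus strand) held the only two-unit heat shock element among the 16 windows of the 8 genes, with its first base at -171 from the start site, and an antioxidant response element core at -212. Two-unit elements stood in 13.5% of the 35116 promoter windows of the same length. A core was found in the windows of 6 of the 8 genes (7 of 16 windows), against 13.3% of all windows and 16.1% of all genes. In the ZFAND5 window (chr9:72365159-72365458, minus strand) cores began at -146 and -114, in the VCP window (chr9:35072576-35072875, minus strand) at -189, and in the UBB window (chr17:16381040-16381339, plus strand) at 22, the same site that lies at -30 from a second UBB start site. USP14 (chr18:158307-158606, plus strand) had a core at -26 and UCHL5, not shown, at -51. NPLOC4 (chr17:81577384-81577683, minus strand) had none of the motifs in either of its windows. The three-unit heat shock element, the two-unit form with a further TTC or GAA in the alternating order after 2 free bases, was in 0 of the 16 windows and 0.49% of all, and the C/EBP-ATF element (TGATGNAA) was in 0 of 16 and 3.62% of all. These matches describe letters in the windows only, and no binding was measured.

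Levels below are log2 intensities after quantile normalization, given for the brightest kept probe of each gene, so they can be set side by side across samples but not across genes. Fold changes come from a limma fit of the 6 groups and the dye, called at an adjusted p under 0.05 over all 17374 genes. Median intensities before normalization ranged between 67.3 and 188.5, with CEM/BTZ200 (67.96) and CEM/BTZ-200 (67.3) below the other 9 samples, and 73.8% to 89% of probes were above background.

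Marker genes of cell types were checked. Being above background does not set a cell type apart here, since 73.8% to 89% of all probes were. All 13 measured T lineage markers, 3 of 5 B lineage, 4 of 5 myeloid and 4 of 5 epithelial markers were above background in all 11 samples. The epithelial marker CDH1 was in none and the B cell marker MS4A1 in 1, whereas CD79A had levels of 12.23 to 15.16. The summed level (log2) of the T lineage markers lay at 16.88 to 17.16 in CEM/WT_BTZ, 17.37 to 17.7 in CEM/WT and 17.67 to 17.7 in CEM/BTZ7. Of these markers, 5 of 13 were called lower in CEM/WT_BTZ than in CEM/WT, beside 9.02% of all genes. In CEM/BTZ7, 7 of 13 were called higher than in CEM/WT_BTZ, beside 12.2% of all genes. The B lineage sum lay at 14.08 to 15.17 in CEM/WT_BTZ and 13.26 to 13.71 in CEM/WT, and at 12.37 to 13.11 in CEM/BTZ7. The myeloid sum lay at 8.948 to 9.216 in CEM/WT_BTZ and 10.55 to 10.83 in CEM/WT, and at 8.637 to 11.31 in CEM/BTZ7. The epithelial sum lay at 12.19 to 12.91 in CEM/WT_BTZ and 11.3 to 11.53 in CEM/WT, and at 12.14 to 12.56 in CEM/BTZ7. The part of these shifts in the results below was not tested.

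**Figure D1:**
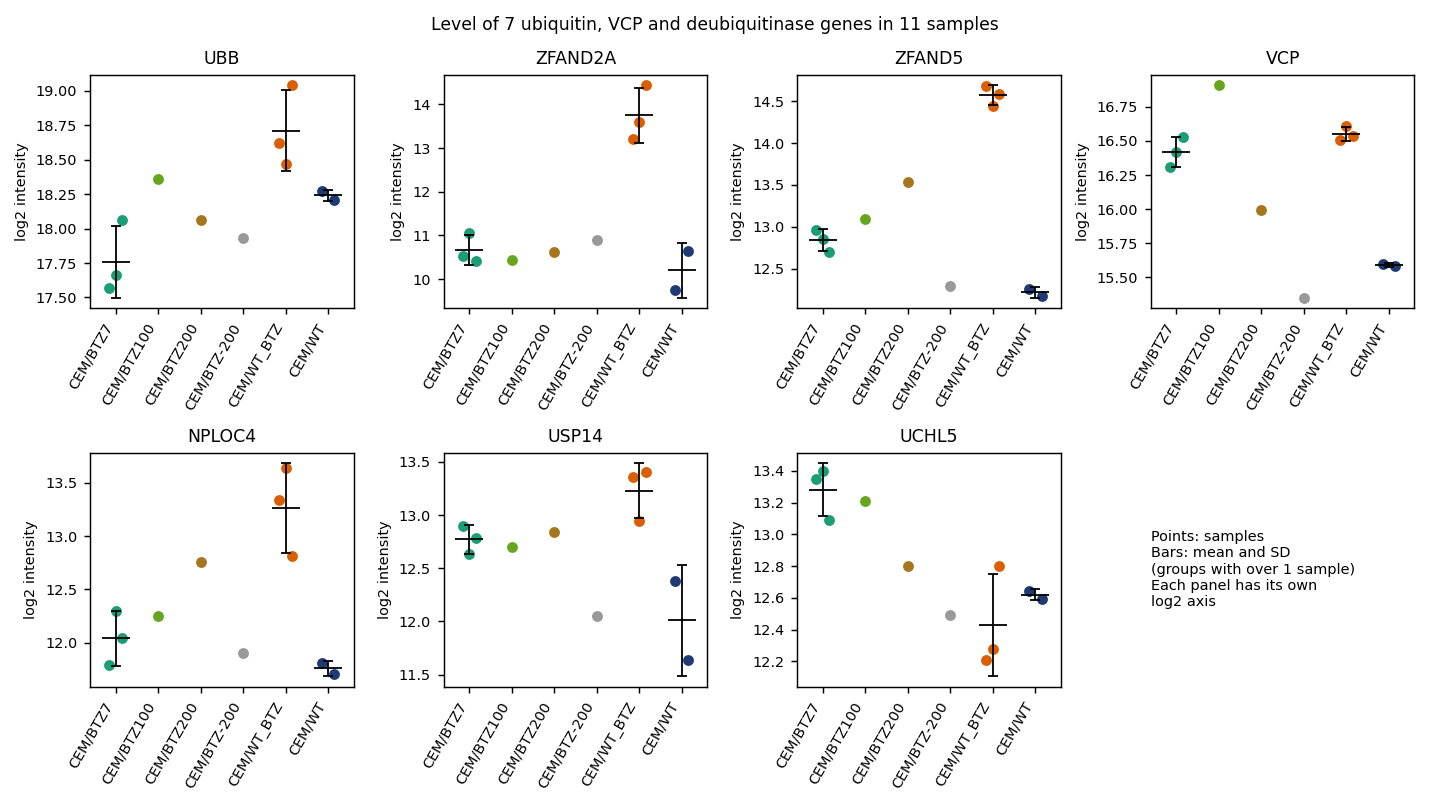
Log2 intensity (y axis, its own range in each panel) of the brightest probe of each of the 7 genes in 11 samples, by group (x axis). Points are samples, and bars are the mean and SD of groups with more than 1 sample. ZFAND2A and ZFAND5 were highest in the 3 CEM/WT_BTZ samples (13.2 to 14.44 and 14.44 to 14.68). After quantile normalization, shown here, VCP was high in both CEM/WT_BTZ (16.51 to 16.61) and CEM/BTZ7 (16.31 to 16.53). In other scalings, given below, these VCP groups lay apart.

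The first question is how parental cells changed within 24 h of 7 nM BTZ. Of the 7 measured genes, 5 were called higher in CEM/WT_BTZ than in CEM/WT (ZFAND2A, ZFAND5, NPLOC4, USP14 and VCP) and 0 lower, where 6.49% of all genes were called higher and 9.02% lower. The median log2 fold change of the 7 genes was 1.2, against -0.0213 over all genes tested.

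The ubiquitin-binding zinc finger genes moved most. ZFAND2A stood at 13.2, 13.6 and 14.44 in CEM/WT_BTZ and at 9.759 and 10.64 in CEM/WT. The groups lay far apart, although each spread over about 1 log2 unit (SD 0.633, n = 3, and 0.623, n = 2). The log2 fold change was 3.67 ± 0.275 (SE), a 12.7-fold higher level (adjusted p = 0.00209). ZFAND5 stood at 14.68, 14.44 and 14.58 in CEM/WT_BTZ and at 12.26 and 12.17 in CEM/WT, a tight separation. Its log2 fold change was 2.36 ± 0.187 (adjusted p = 0.00228), and all 5 of its probes passed the test on their own, with log2 fold changes between 1.96 and 2.36. Both genes passed in 18 of the 18 alternative settings run, at adjusted p up to 0.0466 for ZFAND2A and 0.0443 for ZFAND5.

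VCP and its adaptor rose as well. VCP had 16.51, 16.61 and 16.54 in CEM/WT_BTZ, against 15.6 and 15.58 in CEM/WT. These levels of the brightest probe after quantile normalization had almost no spread in either group. The difference was 0.95 ± 0.172 (adjusted p = 0.017), or 1.94-fold. Its other 3 probes gave 1.22, 1.56 and 1.01, the last of which missed the threshold (adjusted p = 0.0595). The spread depends on probe and scaling. In CEM/WT these 3 probes had 14.18 and 13.58, 10.95 and 9.634, and 7.109 and 7.389. With 75th percentile scaling the brightest probe ran from 16.27 to 16.79 in CEM/WT_BTZ. NPLOC4 had 13.34, 13.64 and 12.81 in CEM/WT_BTZ and 11.81 and 11.71 in CEM/WT, with no overlap. NPLOC4 thus differed by 1.46 ± 0.271 (adjusted p = 0.0184), and its second, dimmer probe gave 1.95 (adjusted p = 0.0244).

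Of the deubiquitinases, USP14 rose and UCHL5 showed no call. USP14 had 13.36, 12.94 and 13.4 in CEM/WT_BTZ and 12.38 and 11.64 in CEM/WT, whose replicates lay further apart than for any other member but ZFAND2A. The USP14 difference was 1.21 ± 0.286 (adjusted p = 0.0379), and its second probe gave 1.29. In the fit of all probes the second passed (adjusted p = 0.0154) and the first did not (adjusted p = 0.0506). UCHL5 had 12.21, 12.28 and 12.8 in CEM/WT_BTZ and 12.64 and 12.59 in CEM/WT, so the groups overlapped. The 95% interval of its difference ran between -0.62 and 0.36 (adjusted p = 0.709), and none of its 3 probes passed. The calls of VCP, NPLOC4 and USP14 held in 11, 13 and 9 of the 18 settings. VCP fell short without CEM/WT replicate 1 (adjusted p = 0.151), CEM/WT replicate 2 (0.0983), CEM/WT_BTZ replicate 1 (0.054), CEM/WT_BTZ replicate 2 (0.0502) or CEM/BTZ7 replicate 2 (0.053), with log2 fold changes of 0.93 to 1.00. NPLOC4 fell short without CEM/WT replicate 1 (adjusted p = 0.167), CEM/WT replicate 2 (0.0901) or CEM/WT_BTZ replicate 1 (0.0568). USP14 passed only without CEM/WT_BTZ replicate 2 among the 8 fits that each leave out a library, and its log2 fold change was 1.67 without CEM/WT replicate 1 and 0.82 without CEM/WT replicate 2 (adjusted p = 0.0837 and 0.2).

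The UBB result depended on the scaling. In the intensities as deposited, its brightest probe read 724900, 936700 and 775500 in CEM/WT_BTZ, against 185400 and 224200 in CEM/WT. It ranked 26, 38 and 7 among the 41000 probes in CEM/WT_BTZ and 68 and 77 in CEM/WT. Quantile normalization gives each rank the same value in all samples, and after it the levels were 18.62, 18.47 and 19.04 in CEM/WT_BTZ and 18.27 and 18.21 in CEM/WT. The groups did not overlap, but the log2 fold change of 0.47 ± 0.261 did not pass (adjusted p = 0.278). Scaling each sample to its 75th percentile instead gave 1.70 ± 0.205 (adjusted p = 0.00762), with levels of 19.31, 19.53 and 19.19 in CEM/WT_BTZ and 17.6 and 17.62 in CEM/WT. The value table of the study gave 1.64 ± 0.333 for the same probe (adjusted p = 0.0135). The other 2 UBB probes gave 0.60 and 0.72 after quantile normalization and were not called. Without CEM/WT_BTZ replicate 3 the first probe was at 0.19 (adjusted p = 0.588). RPS27A also encodes ubiquitin, and whether these probes read its transcript too was not tested.

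**Figure D2:**
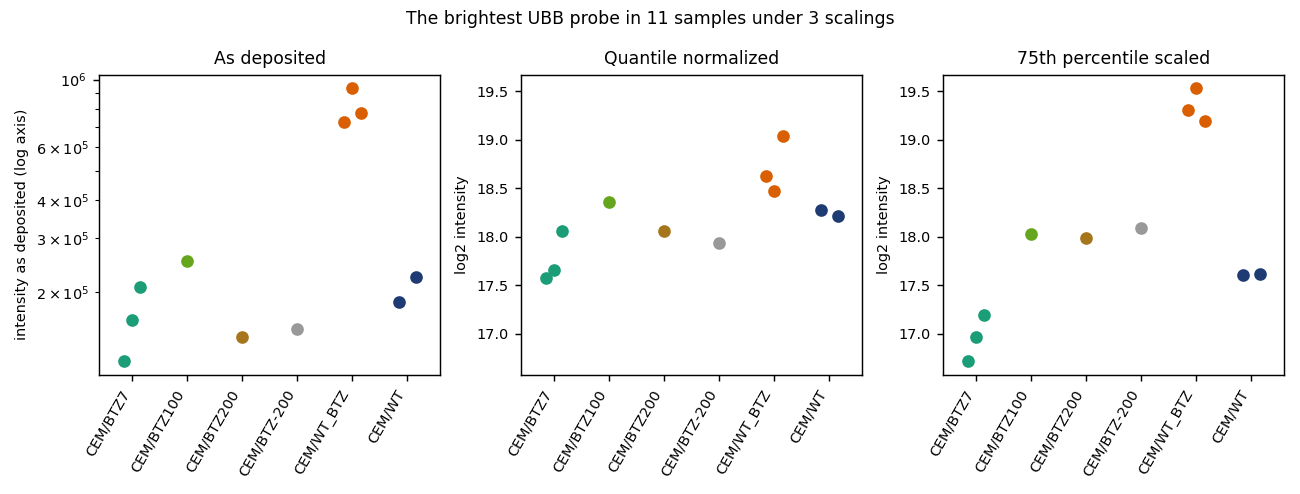
The brightest UBB probe in 11 samples by group (x axis), as deposited (left, intensity on a log axis), after quantile normalization (middle, log2 intensity) and after scaling to the 75th percentile (right, log2 intensity, same range as the middle panel). CEM/WT_BTZ samples read 724900 to 936700 and CEM/WT samples 185400 to 224200 as deposited, and their log2 difference was 0.47 in the middle panel and 1.70 in the right one.

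The second question is how resistant cells differed from parental cells at the same 7 nM for 24 h. CEM/BTZ7 had 4 of the 7 genes called lower than CEM/WT_BTZ (ZFAND2A, ZFAND5, NPLOC4 and UBB) and 1 called higher (UCHL5), where 10.1% of all genes were called lower and 12.2% higher. This comparison shares its CEM/WT_BTZ samples with the previous one, so the directions are not independent. The median log2 fold change of the 7 genes was -0.946, against 0.00607 over all genes.

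ZFAND2A stood at 10.54, 11.06 and 10.42 in CEM/BTZ7, all below the lowest CEM/WT_BTZ sample (13.2). The log2 fold change was -3.32 ± 0.255 (adjusted p = 0.00117), 10-fold lower in CEM/BTZ7. ZFAND5 stood at 12.96, 12.85 and 12.7 in CEM/BTZ7, against 14.44 to 14.68 in CEM/WT_BTZ. Its log2 fold change was -1.75 ± 0.173 (adjusted p = 0.00218), and its 5 probes ranged between -1.14 and -1.75, all called. Both genes kept their call in the 18 settings, at adjusted p up to 0.0125 for ZFAND2A and 0.023 for ZFAND5.

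NPLOC4 and VCP parted here. NPLOC4 had 11.79, 12.3 and 12.04 in CEM/BTZ7 and 12.81 to 13.64 in CEM/WT_BTZ, a log2 fold change of -1.13 ± 0.251 (adjusted p = 0.0235), with -1.58 from its second probe (adjusted p = 0.0259). VCP had 16.31, 16.42 and 16.53 in CEM/BTZ7 and 16.51 to 16.61 in CEM/WT_BTZ. After quantile normalization the ATPase thus overlapped between the groups. Its difference was -0.11 with a 95% interval between -0.49 and 0.28 (adjusted p = 0.687). In the value table of the study, VCP was -0.64 ± 0.178 and passed (adjusted p = 0.0362), and with 75th percentile scaling it was -0.57 (adjusted p = 0.158). In both of these the groups lay apart. The value table had 15.28 to 15.68 in CEM/BTZ7 and 16.02 to 16.25 in CEM/WT_BTZ. With 75th percentile scaling the levels were 15.73 to 16.21 and 16.27 to 16.79. The parting of NPLOC4 and VCP thus depends on the scaling.

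UBB read 118600, 161200 and 206900 as deposited in CEM/BTZ7, against 724900 to 936700 in CEM/WT_BTZ. Its normalized levels were 17.57, 17.66 and 18.06 in CEM/BTZ7 and 18.47 to 19.04 in CEM/WT_BTZ, again without overlap. The log2 fold change was -0.95 ± 0.242 (adjusted p = 0.0366), and it was -2.64 in the value table (adjusted p = 0.00112) and -2.31 with 75th percentile scaling (adjusted p = 0.00167). Without CEM/WT_BTZ replicate 3, which had the highest normalized UBB level, it was -0.58 (adjusted p = 0.113).

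Of the deubiquitinases, UCHL5 was called higher and USP14 was not called. UCHL5 had 13.35, 13.4 and 13.09 in CEM/BTZ7 and 12.21, 12.28 and 12.8 in CEM/WT_BTZ, every CEM/BTZ7 sample above every CEM/WT_BTZ sample. The difference was 0.75 ± 0.188 (adjusted p = 0.0341), with 0.90 and 0.66 from its dimmer probes, but in the fit of all probes none of the 3 passed (adjusted p = 0.0515 for the brightest, then 0.0662 and 0.414). Its brightest probe has 10 spots on the array, whose SD within a sample was 0.0311 to 0.0893 log2 units. USP14 had 12.9, 12.63 and 12.78 in CEM/BTZ7, just below the CEM/WT_BTZ range of 12.94 to 13.4. The USP14 difference of -0.43 ± 0.265 did not pass (adjusted p = 0.305), whereas its second probe, fitted with all probes, gave -0.91 and did (adjusted p = 0.0222), so the probes of USP14 disagree on the call. NPLOC4, UBB and UCHL5 passed in 10, 11 and 6 of 18 settings. Among the 8 fits that each leave out a library, NPLOC4 passed only without CEM/WT_BTZ replicate 3 or CEM/BTZ7 replicate 2 (adjusted p = 0.0256 to 0.13 over all 8), UBB only without CEM/WT_BTZ replicate 2 or CEM/BTZ7 replicate 3 (0.0433 to 0.113), and UCHL5 only without CEM/WT_BTZ replicate 3 (0.0321 to 0.128).

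**Figure D3:**
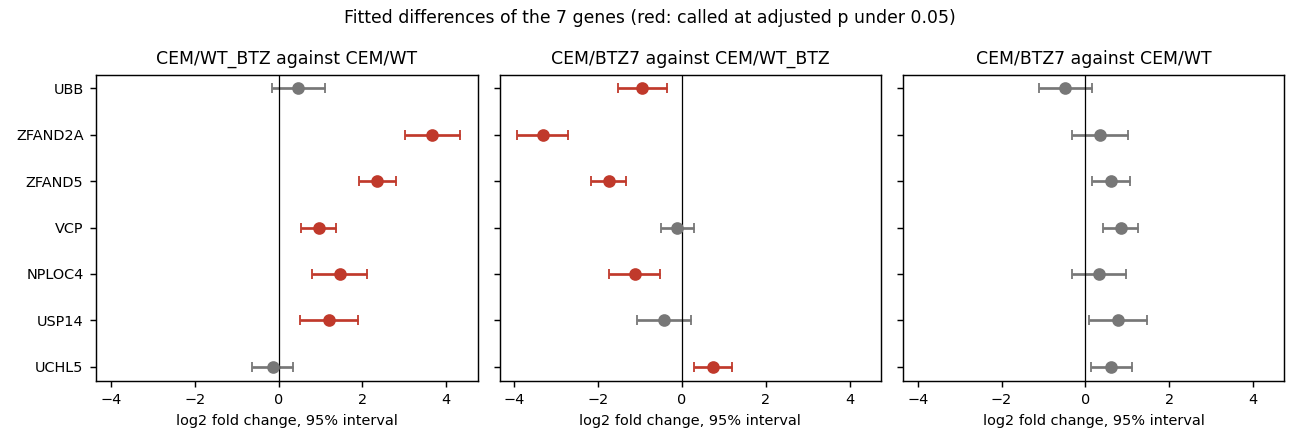
Fitted log2 fold changes (x axis) of the 7 genes (y axis) in 3 comparisons, with 95% intervals; red marks genes called at an adjusted p under 0.05. ZFAND2A had 3.67 in CEM/WT_BTZ against CEM/WT and -3.32 in CEM/BTZ7 against CEM/WT_BTZ, while VCP had 0.95 and -0.11, and no gene is red in CEM/BTZ7 against CEM/WT.

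The third question is how CEM/BTZ7 in drug differed from untreated parental cells. Both the subline and the drug exposure differ between these groups, and the 2 cannot be told apart. In the limma fit 0 of 7 genes were called in either direction, where 1.9% of all genes were called higher and 1.54% lower. An unadjusted p under 0.05 was found for 4 of the 7, beside 2591 of all 17374 genes. VCP came closest, at 16.31 to 16.53 in CEM/BTZ7 and 15.58 to 15.6 in CEM/WT, groups that lie well apart. Its log2 fold change was 0.85 ± 0.172 (adjusted p = 0.0575). With the replicate number as a block (the replicate block fit), it was 0.83 ± 0.0961 and passed (adjusted p = 0.0302). VCP also passed with no dye term (0.83, adjusted p = 0.0345), with no filter on dim probes (adjusted p = 0.044) and with the mean of its probes (0.96, adjusted p = 0.0486). It did not pass with the block when CEM/BTZ7 was numbered as its columns match the value table (0.84, adjusted p = 0.272).

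The other genes with an unadjusted p under 0.05 were USP14, UCHL5 and ZFAND5. USP14 differed by 0.78, UCHL5 by 0.62 and ZFAND5 by 0.61, with adjusted p between 0.181 and 0.268. In each of these 3 genes every CEM/BTZ7 sample was above both CEM/WT samples. How often this occurs over all genes was not counted, so it adds no support. ZFAND2A (0.35, 95% interval -0.32 to 1.01) and NPLOC4 (0.33, interval -0.33 to 0.98) overlapped between the groups. UBB lay at 17.57 to 18.06 in CEM/BTZ7 and 18.21 to 18.27 in CEM/WT, a difference of -0.48 ± 0.261 (adjusted p = 0.489).

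**Figure D4:**
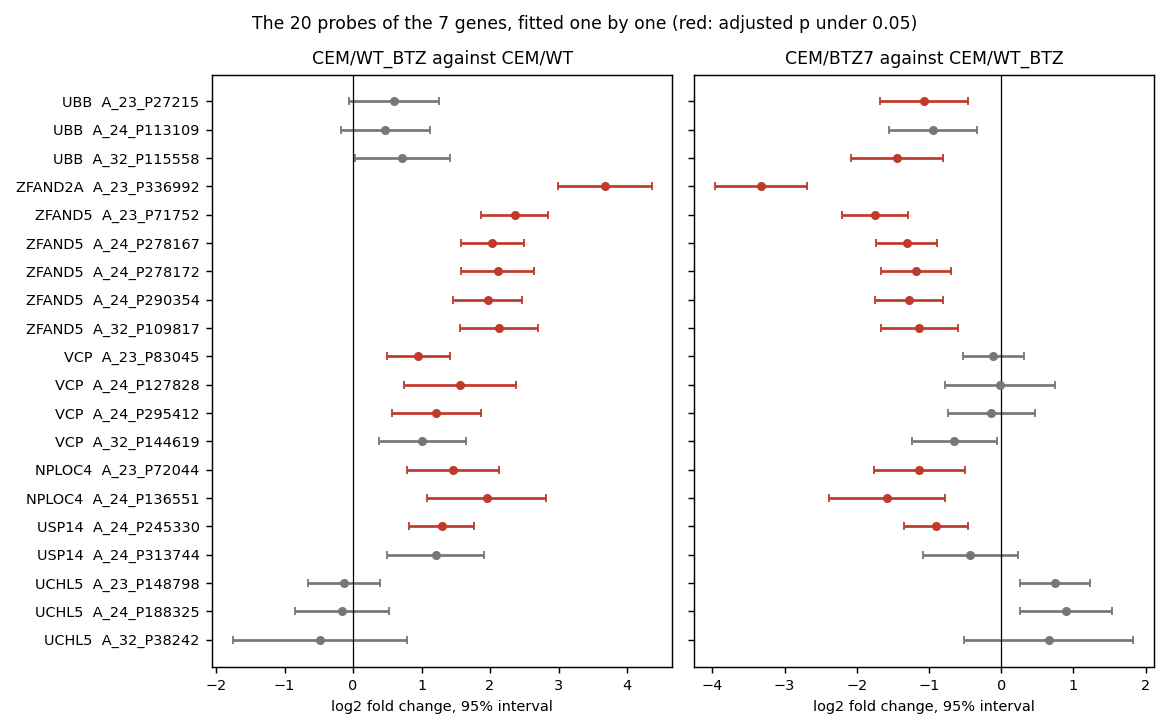
Log2 fold changes with 95% intervals (x axis) of the 20 probes of the 7 genes (y axis), fitted with all kept probes; red marks probes with an adjusted p under 0.05. All 5 ZFAND5 probes are red in both panels, the 4 VCP probes lie between 0.95 and 1.56 on the left and between -0.65 and -0.02 on the right, and the 3 UCHL5 probes lie between 0.66 and 0.90 on the right.

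CEM/BTZ100, CEM/BTZ200 and CEM/BTZ-200 have 1 sample each, which the fit assumes to vary like the other groups. None of the 7 genes was called in CEM/BTZ100 against CEM/WT, where 1.05% of all genes were called higher and 1.54% lower. Of the 7, 3 had an unadjusted p under 0.05, beside 2550 of all 17374 genes. VCP stood at 16.91 in CEM/BTZ100, against 15.58 and 15.6 in CEM/WT, a log2 fold change of 1.28 ± 0.239 (adjusted p = 0.0511). It passed with no dye term (1.32, adjusted p = 0.0207) and with no filter on dim probes (adjusted p = 0.04). ZFAND5 was 0.92 higher (adjusted p = 0.159) and UCHL5 0.74 (adjusted p = 0.296).

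In CEM/BTZ200 against CEM/WT again 0 members were called, where 1.23% of all genes were called higher and 1.77% lower. Only 1 of the 7 had an unadjusted p under 0.05, beside 2514 of all 17374 genes. The dimmest ZFAND5 probe had 10.26 in CEM/BTZ200, within the 10.23 to 10.74 of CEM/WT_BTZ. The brightest ZFAND5 probe had 13.53 in CEM/BTZ200, above every other subline sample though below all CEM/WT_BTZ samples. Its log2 fold change against CEM/WT was 1.35 ± 0.259 (adjusted p = 0.0521). It passed in 5 settings, at adjusted p of 0.0257 in the value table, 0.0251 with 75th percentile scaling, 0.0246 with no dye term, 0.0441 with no filter and 0.0219 with the mean of the probes. The other ZFAND5 probes gave log2 fold changes of 1.57, 1.98, 1.51 and 1.72 against CEM/WT in the fit of all probes. Across the 3 sublines in drug, at 7, 100 and 200 nM, the ZFAND5 level averaged 12.84 (SD 0.131, n = 3), then 13.1 and 13.53. NPLOC4 had 12.04 (SD 0.255, n = 3), then 12.25 and 12.76. ZFAND2A had 10.67 (SD 0.34, n = 3), then 10.43 and 10.61. The other members did not rise steadily. UCHL5 had 13.28 (SD 0.166, n = 3), then 13.21 and 12.8, and VCP 16.42 (SD 0.11, n = 3), then 16.91 and 15.99. USP14 had 12.77 (SD 0.135, n = 3), then 12.7 and 12.84, and UBB 17.76 (SD 0.261, n = 3), then 18.36 and 18.06. With the dye in the fit, the log2 fold changes of ZFAND2A against CEM/WT at the 3 doses were 0.35, 0.61 and 0.78, none of them called.

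CEM/BTZ-200, without drug, was set against CEM/WT. For the brightest probes the log2 fold changes ranged between -0.31 for UBB and 0.32 for ZFAND2A. Of the 7 genes 0 were called, where 1.31% of all genes were called higher and 1.76% lower. An unadjusted p under 0.05 was found for 0 of 7, beside 3268 of all 17374 genes. With 1 sample the 95% intervals were wide, such as -0.78 to 0.38 for VCP (15.35 in CEM/BTZ-200 and 15.58 to 15.6 in CEM/WT). With 75th percentile scaling UBB was at 0.59 and VCP at 0.15, also not called, so their direction here depends on the scaling. Dimmer probes spread more widely. The other 4 ZFAND5 probes gave 0.44, 1.21, 0.42 and 0.99, of which 1.21 and 0.99 had an unadjusted p of 0.00618 and 0.0222 in the limma fit of all probes and did not pass (adjusted p = 0.117 and 0.209). The dimmest UBB probe gave 0.95 (adjusted p = 0.308) and a second VCP probe -0.69 (adjusted p = 0.441). Over the alternative settings ZFAND5 ranged between -0.07 and 0.62.

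Drug withdrawal was read from CEM/BTZ200 in 200 nM against CEM/BTZ-200 without drug, 1 sample each. No member was called, where 0.023% of all genes were called higher and 0.294% lower. An unadjusted p under 0.05 was found for 1 member, beside 1868 of all 17374 genes. ZFAND5 had 13.53 in CEM/BTZ200 and 12.3 in CEM/BTZ-200, a dye-adjusted log2 fold change of 1.29 ± 0.324 (adjusted p = 0.212). VCP had 15.99 in CEM/BTZ200 and 15.35 in CEM/BTZ-200 (0.56, adjusted p = 0.625). ZFAND2A had 10.61 in CEM/BTZ200 and 10.9 in CEM/BTZ-200, which carry different dyes. After the dye term its difference was 0.46 ± 0.477 (adjusted p = 0.907), and over the settings it ranged between -0.30 and 0.68, so its direction depends on the setting.

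The drug contrast of parental cells, (CEM/WT_BTZ minus CEM/WT), was tested against that of the resistant line, (CEM/BTZ200 minus CEM/BTZ-200). The doses differ (7 and 200 nM), and so does the kind of contrast. CEM/BTZ-200 had been grown without BTZ for weeks or months, so drug exposure and time in separate culture cannot be told apart in the second contrast. None of the 7 genes passed, where 0.0748% of all genes were called higher and 0% lower. Of the 7, 2 had an unadjusted p under 0.05, beside 2199 of all 17374 genes. ZFAND2A had a difference of 3.21 ± 0.536 log2 units (adjusted p = 0.108, between 0.0851 and 0.337 over the alternatives), and ZFAND5 1.07 ± 0.364 (adjusted p = 0.313).

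Over the 6 group means the members spanned 3.55 log2 units (ZFAND2A), 2.35 (ZFAND5), 1.56 (VCP), 1.5 (NPLOC4), 1.22 (USP14), 0.95 (UBB) and 0.85 (UCHL5). The place of UBB depends on the scaling, since with 75th percentile scaling its samples ran between 16.72 in CEM/BTZ7 and 19.53 in CEM/WT_BTZ. CEM/WT_BTZ was the highest group for ZFAND2A, ZFAND5, NPLOC4, USP14 and UBB, CEM/BTZ7 for UCHL5 and, for the brightest probe, CEM/BTZ100 for VCP. The order of ZFAND5 was CEM/WT_BTZ (14.57), CEM/BTZ200 (13.53), CEM/BTZ100 (13.1), CEM/BTZ7 (12.84), CEM/BTZ-200 (12.3) and CEM/WT (12.22). The last 2 groups in that order lie within the CEM/BTZ7 SD of 0.131 of each other for this probe, but not for the other ZFAND5 probes given above. For the brightest VCP probe the order was CEM/BTZ100 (16.91), CEM/WT_BTZ (16.55), CEM/BTZ7 (16.42), CEM/BTZ200 (15.99), CEM/WT (15.59) and CEM/BTZ-200 (15.35). For this probe CEM/WT_BTZ and CEM/BTZ7 overlapped after quantile normalization, but not in the value table or with 75th percentile scaling. The top place of CEM/BTZ100 depends on probe and scaling. In the value table it had 15.92, below the 16.02 to 16.25 of CEM/WT_BTZ, and another VCP probe had 14.85 in CEM/BTZ100 and 14.91 to 15.29 in CEM/WT_BTZ.

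Over the 11 samples, which share their groups, NPLOC4 and ZFAND5 had a Pearson r of 0.919, ZFAND2A and ZFAND5 0.884 and USP14 and ZFAND5 0.856. UCHL5 had r between -0.551 (with UBB) and 0.326 (with VCP). For members spanning over 1 log2 unit after quantile normalization, which leaves out UBB and UCHL5, the genes with the most similar profile were found among all genes tested. For ZFAND2A they were NABP1 (r = 0.992), a single-strand DNA binding protein, DUSP8 (0.979), a phosphatase of MAP kinases, and CD86 (0.974), a costimulatory ligand. For ZFAND5 they were GCLM, a subunit of the enzyme that starts glutathione synthesis, KLF6, a zinc finger transcription factor, and KCMF1, a ubiquitin ligase (0.988 each). USP14 was closest to ZNF410 (0.981), BLTP3B (0.973) and PSMD6 (0.962), a 19S subunit. VCP was closest to CTAGE11P (0.968), MIA2 (0.966) and the deubiquitinase OTUD6B (0.959), and NPLOC4 to CRAMP1 (0.974), the autophagy kinase ULK1 (0.966) and the small MAF protein MAFG (0.959).

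The partners of these genes were read from lists of 83 other genes of the pathway, of which 77 were measured. In CEM/WT_BTZ 21 of the 77 were called higher than in CEM/WT and 2 lower (median log2 fold change 0.389), beside 6.49% and 9.02% of all genes. In CEM/BTZ7 against CEM/WT_BTZ, 3 were called higher and 13 lower (median -0.201), beside 12.2% and 10.1% of all genes. CEM/BTZ7 against CEM/WT gave 2 higher and 0 lower, beside 1.9% and 1.54% of all genes. Counts of the single lists below are to be read against these shares.

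Of the proteasome-bound receptors and anchors, 6 of 7 were called higher in CEM/WT_BTZ than in CEM/WT (median 1.52). PSMD14, the deubiquitinase at the mouth of the 19S particle, had 16.5, 16.14 and 16.53 in CEM/WT_BTZ and 14.65 and 14.68 in CEM/WT (log2 fold change 1.74, adjusted p = 0.00525). ADRM1, the receptor that anchors UCHL5, rose by 1.58 (adjusted p = 0.00807). PSMD2, on which USP14 docks, rose by 1.53 (adjusted p = 0.0126), and the proteasome-associated thioredoxin TXNL1 by 1.52 (adjusted p = 0.00839). In CEM/BTZ7 against CEM/WT_BTZ, TXNL1 fell by 0.92 (adjusted p = 0.0203) and PSMD14 fell by 0.86 (adjusted p = 0.0196), and the other 5 were not called.

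Of the shuttles that carry ubiquitylated proteins, 3 of 7 measured were called higher in CEM/WT_BTZ than in CEM/WT. SQSTM1 (p62), an autophagy receptor, had 14.23, 14.28 and 14.44 in CEM/WT_BTZ and 11.32 and 11.47 in CEM/WT, a log2 fold change of 2.93 (adjusted p = 0.00145). The second SQSTM1 probe, which is nearly as bright, gave -0.65 and did not pass in a fit of all probes (adjusted p = 0.55), so the 2 probes disagree. UBQLN1 rose by 1.68 (adjusted p = 0.00651) and RAD23B by 0.81 (adjusted p = 0.0446). In CEM/BTZ7 against CEM/WT_BTZ, SQSTM1 fell by 2.60 (adjusted p = 0.000861), NUB1 fell by 1.29 (adjusted p = 0.0121) and UBQLN1 fell by 1.03 (adjusted p = 0.0141).

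Of the 28 measured VCP cofactors, 6 were called higher and 1 lower in CEM/WT_BTZ against CEM/WT (median 0.371). NSFL1C (p47), an adaptor of VCP in membrane fusion, rose by 1.82 (adjusted p = 0.00712), PLAA by 1.60 (adjusted p = 0.00893), the deubiquitinase VCPIP1 by 1.34 (adjusted p = 0.00757) and UBXN4 by 1.25 (adjusted p = 0.0258). SVIP, a small protein that inhibits degradation through VCP at the endoplasmic reticulum, went the other way. It had 6.426, 5.263 and 5.843 in CEM/WT_BTZ and 8.167 and 8.097 in CEM/WT (log2 fold change -2.27, adjusted p = 0.0114). In CEM/BTZ7 it stood at 8.674, 8.446 and 8.234, higher than in CEM/WT_BTZ by 2.57 (adjusted p = 0.0044). ATXN3, a deubiquitinase that binds VCP, was called higher in CEM/BTZ7 both against CEM/WT_BTZ (1.02, adjusted p = 0.0107) and against CEM/WT (1.04, adjusted p = 0.0394). The ATXN3 call against CEM/WT held in only 6 of the 18 settings, and that against CEM/WT_BTZ in 16. SYVN1, an endoplasmic reticulum ubiquitin ligase, fell by 0.84 in CEM/BTZ7 against CEM/WT_BTZ (adjusted p = 0.0292).

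The other ZFAND genes followed ZFAND2A and ZFAND5 in part. ZFAND3 (1.42, adjusted p = 0.0277) and ZFAND1 (0.90, adjusted p = 0.0416) were called higher in CEM/WT_BTZ than in CEM/WT and the other 3 of 5 were not. In CEM/BTZ7 against CEM/WT_BTZ the same 2 genes were called lower (-1.35 and -0.76, adjusted p = 0.0193 and 0.0429).

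Among 28 other deubiquitinases, 4 were called higher and 1 lower in CEM/WT_BTZ against CEM/WT. USP15 had 10.82, 11.96 and 11.14 in CEM/WT_BTZ and 8.418 and 9.766 in CEM/WT (2.26, adjusted p = 0.0431), while its other probes gave 0.34 and -0.45 and were not called, so the USP15 probes disagree. CYLD, a deubiquitinase of linear and lysine-63 chains, rose by 1.56 (adjusted p = 0.0232), USP47 by 1.01 (adjusted p = 0.0178) and USP9X by 0.83 (adjusted p = 0.0347), while TNFAIP3 (A20) fell by 1.24 (adjusted p = 0.0244). CEM/BTZ7 had 1 called higher and 5 lower than CEM/WT_BTZ. USP13 was higher (1.38, adjusted p = 0.00633), and USP15 (-1.84, adjusted p = 0.0496), USP47 (-1.09, adjusted p = 0.00815), OTUD5 (-1.01, adjusted p = 0.032) and OTULIN (-0.99, adjusted p = 0.0354) were lower. The second OTUD5 probe gave -0.06 and was not called. CYLD was also called higher in CEM/BTZ7 than in untreated parental cells, at 7.992, 8.15 and 8.109 against 6.351 and 5.837 in CEM/WT (1.99, adjusted p = 0.0237). That call held in 11 of the 18 settings. The 2 ubiquitin-activating E1 enzymes were not called in any of these comparisons.

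In the single samples, UCHL1, a deubiquitinase of neurons, was above background only in CEM/BTZ200 (4.329) and CEM/BTZ-200 (5.021). It was not above background in CEM/WT (mean 2.571). The fit called UCHL1 higher in both, but it passed the filter, which needs at least 2 samples, only through these 2 samples. The calls thus add no support. The 95th percentile of the negative controls, after normalization, also stood higher, at 4.138 in CEM/BTZ200 and 4.473 in CEM/BTZ-200 against 3.372 and 2.919 in CEM/WT, so no fold is given. USP47 fell by 1.72 in CEM/BTZ-200 against CEM/WT (adjusted p = 0.0284).

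**Figure D5:**
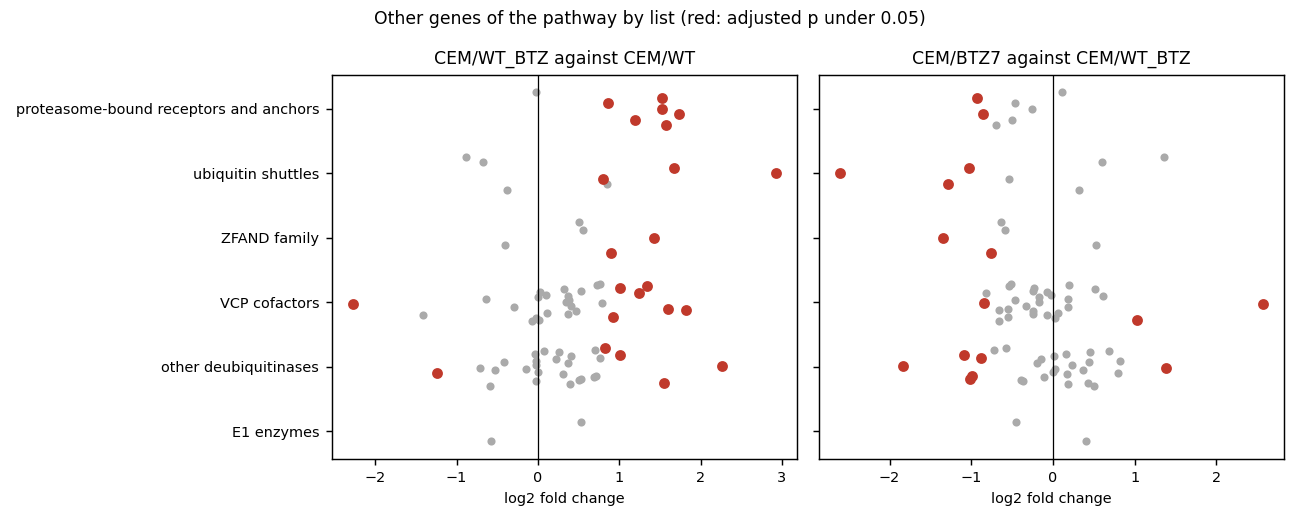
Log2 fold changes (x axis) of the 77 measured pathway genes other than the members, by list (y axis), for 2 comparisons; each point is a gene and red marks an adjusted p under 0.05. On the left 21 genes are red to the right of 0 and 2 to its left, and on the right 3 are red above 0 and 13 below.

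Of the 19 pathway genes named for CEM/WT_BTZ against CEM/WT, SQSTM1 passed in all 18 settings. Its log2 fold change there ran from 1.14 to 2.975, and its second probe, given above, was not called. Of the 15 named for CEM/BTZ7 against CEM/WT_BTZ, SVIP and USP13 passed in all 18 settings. The others lost their call in at least 1 setting. USP47, lower in CEM/BTZ-200 (1 sample) than in CEM/WT, kept that call in 7 of 14 settings.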

How the data were processed

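Agilent whole human genome arrays were hybridised with RNA of 11 samples, of which 6 carried Cy3 and 5 carried Cy5. The study's methods describe Cy3 and Cy5 samples put on the arrays in equal amounts, so samples may share an array. No fit had a term for the array, so dependence between samples of one array was not modelled. The deposited intensities are processed signals of 45015 spots that the authors took with Agilent Feature Extraction, with no normalization across arrays. The deposited log2 values (the value table) were made by the authors with limma, by background correction, loess and quantile normalization. Versions of both tools are not given in the sources used here. Saturation flags were not used here. In CEM/BTZ7, the intensities of replicates 1, 2 and 3 were closest to the value table's replicates 2, 3 and 1 (Spearman correlation 0.9946, 0.9958 and 0.9934), and the other 8 samples were closest to their own name. The intensity columns were used as named.

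Intensities were quantile-normalized, put on the log2 scale and averaged over spots of a probe. Probes above the 95th percentile of the 153 negative control spots in at least 2 samples stayed in (37422 of 41000 probes), and the brightest kept probe stood for a gene. Symbols were updated through gene identifiers of RefSeq (GRCh38.p14). limma 3.58.1 (R 4.3.3) was fitted with group and dye as factors over all 11 samples on 4 residual and 2.4 prior degrees of freedom, with Benjamini-Hochberg adjustment over 17374 genes and 2-sided p-values. The dye term called 0 genes (744 at an unadjusted p under 0.05). The fit was tested on simulated data. Depth does not apply to arrays, whose number limits the precision.

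With the numbers of the intensity columns, same-numbered samples deviated together from their group means in all 7 pairs (r between 0.295 and 0.534, other pairs -0.465 to 0.0717). Such deviations cancel within a group, so the pairs are not independent and low r in the other pairs is partly forced. A replicate block was fitted over the 3 groups with numbered replicates. With the value table numbers the same-numbered pairs had r between -0.337 and 0.387. The members and lists were chosen with earlier results of these data known. Named were all members, up to 4 called genes per list and direction, and the 3 genes most like each member spanning over 1 log2 unit. Alternatives were the value table, 75th percentile scaling, no dye term, no filter, the mean of probes, fits without CEM/BTZ200 and CEM/BTZ-200, of only the 2 groups, with the replicate block and without each replicate. Except with no filter and the mean of probes, each gene kept its probe. Added after seeing the data were CEM/BTZ7 dyes, and dyes with numbers, by matched column.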

Additional observations from a re-analysis of the deposited data

How the results depend on the processing

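Of the 7 genes, 5 were called in CEM/WT_BTZ against CEM/WT and 5 in CEM/BTZ7 against CEM/WT_BTZ. Fitting only the 2 groups compared left 2 in each, ZFAND2A and ZFAND5. Calls over all genes also fell, from 2696 to 670 in CEM/WT_BTZ against CEM/WT and from 3868 to 2906 in CEM/BTZ7 against CEM/WT_BTZ. In both comparisons they fell too in each fit that leaves out a replicate. Leaving out each replicate in turn left 2 to 4 in both. In CEM/BTZ7 against CEM/WT, 0 were called, also without each replicate, and VCP was the 1 called with no dye term, with no filter, with the mean of probes and with the replicate block. In CEM/BTZ100 against CEM/WT, VCP was the 1 called with no dye term and with no filter. In CEM/BTZ200 against CEM/WT, ZFAND5 was the 1 called in the value table, with 75th percentile scaling, with no dye term, with no filter and with the mean of probes. The replicate block changed no other call of a member, although it raised the calls over all genes to 6520 (2696 without it) in CEM/WT_BTZ against CEM/WT. With the block and CEM/BTZ7 numbered as matched, a setting chosen after seeing the data, the paired fit called 2 in CEM/WT_BTZ against CEM/WT and 3 in CEM/BTZ7 against CEM/WT_BTZ. Over all genes this fit called 474 and 2177. Of 690 values of named pathway genes under the alternatives, 473 stayed past the threshold and 217 did not, with 0 reversed, and no member value that was called reversed. The causes were not tested, beyond fewer samples in the fits that leave some out. CEM/BTZ100, CEM/BTZ200 and CEM/BTZ-200 had 1 sample each, which limits their precision.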
